A study of Mus musculus with 43 samples.

Results

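Cohesin is a ring of an SMC1 protein, an SMC3 protein and a kleisin, bound by a STAG protein, that holds sister chromatids together after DNA replication. Germ cells that enter meiosis replace subunits of this ring with meiotic forms: Smc1b takes the place of Smc1a, Rec8 and Rad21l take the place of the kleisin Rad21, and Stag3 takes the place of Stag1 and Stag2. The expression and promoter marks of 10 cohesin genes were examined, namely the 4 meiotic subunits Rec8, Rad21l, Smc1b and Stag3, the general subunits Rad21, Smc3 and Stag1, and the regulators Nipbl, Wapl and Sgo2a. Nipbl loads cohesin onto chromatin, Wapl releases it, and Sgo2a is a shugoshin that protects centromeric cohesin from cleavage. The genes were chosen by symbol and matched by gene identifier, and they make up 10 of the 55401 genes in each expression table.

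The data came from a study of Prmt1, the enzyme that makes most asymmetric dimethylarginine, in mouse germ cells. Prmt1-dKO mice carried Prmt1 lox/lox alleles, in which exons 4 and 5 are flanked by lox sites, and a CreERT2 that is expressed with EGFP from the germline gene Ddx4, and tamoxifen was given on 3 consecutive days. RNA was measured at postnatal day 7 (P7) by bulk RNA-seq of whole testes (3 WT and 3 dKO libraries) and by Smart-seq2 of sorted EGFP-positive germ cells (2 WT and 2 dKO libraries). CUT&Tag, which cuts chromatin where an antibody has bound, gave 33 peak lists for H3K4me3, H3K27ac, H4R3me2a, H3R2me2a, H3R8me2a, H4R3me1 and H4R3me2s, 17 from P7 and 16 labelled P14. All lists came from WT mice except 2 H4R3me2s lists from P7 dKO mice. Mice of every group, in the RNA assays too, had a C57BL/6J background. The labels call the RNA controls WT, whereas the sorting methods name heterozygous Prmt1 +/lox animals with the Cre allele. The labels give the bulk samples as spermatogonia, although their RNA was taken from the testis. Summed TPM (transcript abundance scaled for transcript length and library size) of 10 Sertoli cell markers was 4845 to 5245 in the WT bulk libraries and 255 to 283 in the sorted WT libraries. The P14 lists have spermatogonia in their titles and spermatocyte as the cell type, and the peak names in the 3 H4R3me2s lists labelled P14 begin with SD17R in place of P14. The study speaks of biological replicates, but no label ties a library to an animal, and the p-values below measure the spread between these libraries.

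The libraries held 12396345 to 16598249 counts in bulk RNA-seq and 15610392 to 18547103 in Smart-seq2. Genes with at least 1 count moved with genotype, from 15572 and 17069 in sorted WT to 20159 and 21350 in sorted dKO libraries and from 22300 to 22510 in WT to 24019 to 24454 in dKO testes, and their part in the differences below was not tested. Prmt1 itself had 652, 604 and 638 TPM in WT and 410, 433 and 402 TPM in dKO testes, and 350 and 239 TPM in WT and 179 and 151 TPM in dKO sorted cells. The dKO libraries thus lay below the WT libraries in both assays, with log2 fold changes of -0.49 in testes (edgeR FDR = 0.0334) and -0.88 in sorted cells (edgeR FDR = 0.133), and Prmt1 counts include exons outside the deleted segment. The second dKO bulk library stood apart from the other 5, and without it the biological coefficient of variation fell from 0.155 to 0.0891.

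The upstream sequences of Rec8, Rad21l and Smc1b are shown with that of Smc3 because the promoter marks described further on turn on these genes. They were taken from RefSeq (GRCm38.p6), which held windows for 8 of the 10 genes, Rad21 and Nipbl not among them, and only bases outside annotated exons are printed. Capitals mark matches, on either strand, to CCAAT (the NF-Y box), GCGGGAA (E2F), GGGCGG (GC box), CACGTG (E-box) or CNCCTCAG (the STRA8 motif).
Rec8, chr14:55617916-55618036, plus strand: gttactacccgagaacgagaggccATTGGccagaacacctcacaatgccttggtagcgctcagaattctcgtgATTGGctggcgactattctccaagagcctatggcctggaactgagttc
Rad21l, chr2:151668534-151668783, minus strand: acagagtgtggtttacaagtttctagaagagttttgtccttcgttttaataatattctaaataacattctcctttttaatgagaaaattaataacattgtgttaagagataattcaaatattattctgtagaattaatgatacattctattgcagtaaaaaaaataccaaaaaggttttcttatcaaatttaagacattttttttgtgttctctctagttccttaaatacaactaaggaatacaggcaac
Smc1b, chr15:85131965-85132077, minus strand: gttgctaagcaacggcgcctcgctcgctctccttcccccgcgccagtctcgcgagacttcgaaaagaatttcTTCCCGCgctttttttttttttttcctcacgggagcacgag
Smc3, chr19:53600146-53600395, plus strand: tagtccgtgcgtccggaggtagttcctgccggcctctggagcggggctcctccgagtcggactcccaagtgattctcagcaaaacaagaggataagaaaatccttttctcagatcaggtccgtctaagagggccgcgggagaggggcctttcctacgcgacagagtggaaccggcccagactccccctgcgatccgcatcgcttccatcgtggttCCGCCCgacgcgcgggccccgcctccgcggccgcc

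The Rad21l start differed from the others in base composition. Over the 250 bases upstream of the RefSeq start, Rad21l had 25.6% G and C and 1 CpG, whereas Rec8 had 56% and 10, Smc1b 58% and 25, Stag3 62.8% and 26, and Smc3 64.4% and 26. The medians over all 32851 RefSeq windows were 52.4% and 6 CpG. CCAAT occurred 3 times upstream of Rec8, once each upstream of Smc1b, Stag3, Stag1 and 1 of 2 Sgo2a starts, 2 times upstream of Wapl, and was not found upstream of Rad21l or Smc3, beside 33.8% of all windows that hold it. GCGGGAA lay 48 bases upstream of the Smc1b start and 16 bases upstream of the Stag1 start, and CACGTG 170 bases upstream of the Stag3 start, motifs held by 3.82% and 6.02% of all windows. GGGCGG, held by 32.7% of all windows, occurred upstream of Smc3, Stag1, Wapl and the second of 2 Sgo2a starts, and not upstream of the 4 meiotic genes. CNCCTCAG was found upstream of none of the 8 genes and in 6.42% of all windows. These matches describe the letters in the windows only.

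The 4 meiotic subunits were all measured in spermatogonia at P7, before most germ cells of the testis are in meiosis. In sorted WT cells Smc1b, the meiotic SMC1 protein, had the highest mean TPM of the 10 genes, with 192 and 223 TPM. Stag1 (148 and 227 TPM) overlapped it in range, and Stag3 (143 and 103 TPM) and Smc3 (92.1 and 106 TPM) followed and overlapped each other. Wapl came next with 38.5 and 44.6 TPM and lay apart from its neighbours in this order. Sgo2a (32.4 and 26 TPM), Rec8 (19.3 and 38.6 TPM) and Rad21 (15 and 35.8 TPM) did not differ beyond their spread. Nipbl (9.09 and 12.4 TPM) and Rad21l (11 and 5.82 TPM) were the lowest and overlapped. In sorted dKO cells Smc1b had a lower mean TPM than Stag1, Smc3 and Stag3 and did not overlap Stag3 in range.

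The order was different in whole WT testes. Rad21, the kleisin of dividing cells, was the highest there with 204, 196 and 172 TPM. Rec8 had 14.2, 17.5 and 15.5 TPM and Rad21l had 3.66, 3.6 and 2.48 TPM. Both meiotic kleisins were therefore far below Rad21 in every whole WT testis, and Rad21l was again the lowest of the 10 genes. Smc1b had 26.1, 40.8 and 25.4 TPM and Stag3 59.2, 78.9 and 72.7 TPM. Wapl, Stag3 and Smc3 overlapped one another in neighbouring ranks, as did Nipbl, Sgo2a and Rec8.

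All 4 meiotic subunits had higher TPM in both sorted WT libraries than in any whole WT testis. The ratio of mean TPM was 6.74 for Smc1b, 2.59 for Rad21l, 1.84 for Rec8 and 1.75 for Stag3. Stag1, Smc3 and Sgo2a were also higher in sorted cells, 3.15-fold, 1.51-fold and 1.79-fold, so 7 of the 10 genes lay above. Of 16479 genes with a mean TPM of at least 1 in these libraries, 28.2% lay above and 42.7% lay below in the same sense. Rad21 was 7.51-fold, Wapl 1.91-fold and Nipbl 1.58-fold lower in sorted cells than in whole testes. Effective transcript lengths of Stag1 ranged from 1624 to 4458 bases among the libraries, which enters its TPM, and those of Wapl from 3901 to 6035 bases. In CPM, which is not scaled for length and was normalised within each assay, Stag1 was at 261 in sorted and 164 in whole WT samples and Wapl at 189 and 208, so the TPM differences of both genes are larger than those in CPM. Sorted and whole samples were also made by different protocols, so cells and protocol cannot be told apart, and in whole testes fewer cells of a type cannot be told apart from less RNA per cell.

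**Figure D1:**
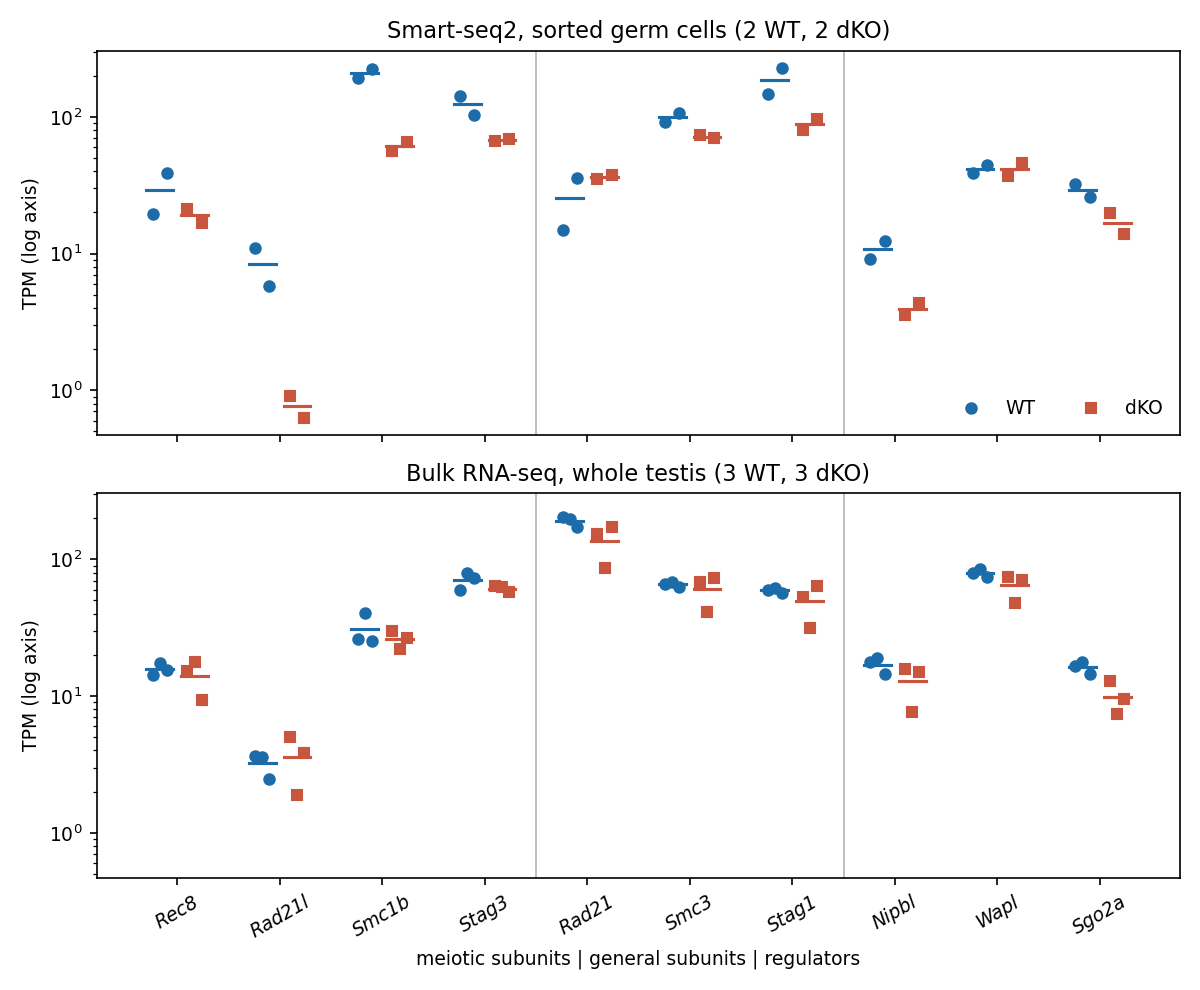
TPM on a log axis of the 10 cohesin genes in each Smart-seq2 library (top) and each bulk RNA-seq library (bottom), with WT as circles, dKO as squares and lines at the group means. In sorted cells the dKO points of Smc1b, Rad21l and Nipbl lie clearly below the WT points, while in whole testes the same genes overlap.

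In sorted dKO cells 3 of the 4 meiotic subunits lay below both WT libraries, Smc1b and Rad21l farthest, while Rec8 overlapped WT. The WT libraries held 11446 and 13028 counts of Smc1b and the dKO libraries 3324 and 3315, or 637 ± 63.3 and 217 ± 3.88 CPM (counts scaled to library size; SD, n = 2 each). Both dKO libraries were lower than both WT libraries, 2.94-fold in the mean. The log2 fold change was -1.56 (SE 0.15), and edgeR's quasi-likelihood test gave it FDR = 0.0774, a value that no gene in this assay fell below.

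For Rad21l, the second meiotic kleisin, 246 and 129 counts were found in the WT libraries against 20 and 12 in the dKO libraries. The groups did not overlap, and mean CPM was 9.74 ± 4.23 against 1.04 ± 0.349, a 9.36-fold difference. Its log2 fold change was -3.22 (SE 1.1), with FDR = 0.174 by edgeR's quasi-likelihood test. The counts behind the dKO values are few, and the WT libraries also differed from each other, at 11 and 5.82 TPM.

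Stag3, the meiotic STAG subunit, had 143 and 103 TPM in WT and 66.9 and 69.3 TPM in dKO cells, with no overlap and a log2 fold change of -0.61 (SE 0.3, edgeR FDR = 0.328). Rec8, the main meiotic kleisin, had 19.3 and 38.6 TPM in WT and 21.3 and 16.8 TPM in dKO cells. Its groups overlapped, with a log2 fold change of -0.36 (SE 0.48, edgeR FDR = 0.754). The sign of this change was not fixed, since it was -0.79 without WT replicate 1 and 0.30 without WT replicate 2.

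The general subunits and regulators did not share 1 direction in sorted cells. Nipbl, the loader, had 9.09 and 12.4 TPM in WT and 3.53 and 4.36 TPM in dKO cells, a log2 fold change of -1.23 (SE 0.27, edgeR FDR = 0.0774) with no overlap. Rad21 had 62.6 ± 30.3 CPM in WT and 120 ± 1.63 CPM in dKO cells, a log2 fold change of 0.95 (SE 0.38, edgeR FDR = 0.235). Its CPM did not overlap between genotypes, but its TPM did, at 15 and 35.8 in WT and 34.9 and 37.5 in dKO cells. Stag1 had 148 and 227 TPM in WT and 79.6 and 96.3 TPM in dKO cells, Smc3 had 92.1 and 106 TPM against 73.1 and 70.2 TPM, and Sgo2a had 32.4 and 26 TPM against 19.8 and 13.8 TPM. Their log2 fold changes of -0.40, -0.24 and -0.58 did not pass edgeR's test (FDR = 0.34, 0.499 and 0.365), although the groups did not overlap. Wapl had a log2 fold change of 0.28 with FDR = 0.361 by edgeR. Its CPM did not overlap between genotypes either, but its TPM did, at 38.52 and 44.6 in WT and 36.65 and 45.98 in dKO cells.

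Counted over the 10 genes, CPM of both dKO libraries lay below both WT libraries for 7 genes and above for 2 (Rad21 and Wapl), beside 20.3% and 36.3% of all 16443 genes tested. The median log2 fold change was -1.08 for the 4 meiotic genes, -0.32 for the other 6 and 0.15 for all genes tested. No member was called at FDR below 0.05 and at least 2-fold by edgeR, which called 0 of 16443 genes (0%) in this assay. With no adjustment (p below 0.05, a change of 2-fold or more), 3 of the 10 genes were lower in dKO (Smc1b, Rad21l and Nipbl), beside 678 (4.12%) of all genes. DESeq2 called the same 3 genes lower at FDR = 4.21e-21 for Smc1b, 0.0109 for Rad21l and 0.00423 for Nipbl, beside 3.93% of the 16901 genes it tested. The WT libraries decide much of this: with either left out, which leaves 1 WT library assumed to vary like the others, edgeR called 3 members, Smc1b and Rad21l each time with Nipbl when WT replicate 1 was left out and with Rad21 when WT replicate 2 was left out. These fits called 41.4% and 33.7% of all genes, so 3 of 10 members is no larger a share.

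The summed TPM of meiotic prophase markers was lower in sorted dKO cells, as were Smc1b, Rad21l and Stag3, while Rec8 overlapped WT. For 10 genes such as Sycp1 and Syce2 the sum was 1721 to 1831 in WT and 897 to 900 in dKO libraries. Syce2 alone held 748 to 890 TPM in WT and 352 to 392 TPM in dKO. Dmc1 and Spo11 overlapped between genotypes in TPM, and no tested marker passed FDR below 0.05 by edgeR. Summed TPM of 8 markers of undifferentiated spermatogonia was 80.6 to 108 in WT and 203 to 215 in dKO, and that of 7 markers of differentiating spermatogonia was 568 to 723 and 563 to 577. General germ cell markers (5 genes) summed to 2169 to 2288 TPM in WT and 1373 to 1402 TPM in dKO. Most of that sum was Tex101, with 1576 to 1591 TPM in WT and 628 to 651 TPM in dKO (log2 fold change -1.09). The other genes of that list were not lower in dKO, with log2 fold changes of 0.03 for Ddx4, 0.22 for Dazl, 0.70 for Mael and 0.62 for Tdrd9. Sertoli cell markers summed to 255 to 283 TPM in WT and 343 to 472 TPM in dKO. Much of that rise was Clu, with 110 to 118 TPM in WT and 216 to 274 TPM in dKO. Cldn11, Fshr and Rhox5 had negative log2 fold changes (-0.12, -0.31 and -1.19), and the other Sertoli cell markers had positive ones. All 5 macrophage markers were listed at 0 in WT and summed to 30.6 to 33.2 TPM in dKO. The sum of 2 erythroid markers was 23.8 to 28.8 TPM in WT and 58.3 to 137 TPM in dKO. The part of these shifts in the cohesin values was not tested.

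In whole dKO testes the meiotic subunits were close to WT. Smc1b had 26.1, 40.8 and 25.4 TPM in WT and 30.1, 21.9 and 26.5 TPM in dKO testes, and Rad21l had 3.66, 3.6 and 2.48 TPM against 5.05, 1.9 and 3.81 TPM. Stag3 had 59.2, 78.9 and 72.7 TPM against 63.5, 62.4 and 57.6 TPM, and Rec8 had 14.2, 17.5 and 15.5 TPM against 15.2, 17.7 and 9.41 TPM. The genotypes overlapped for each of the 4 genes. Their log2 fold changes were 0.06 for Smc1b, 0.28 for Rad21l, -0.14 for Stag3 and -0.10 for Rec8, with FDR between 0.463 and 0.81 by edgeR. Without dKO replicate 2, Rec8 was at -0.44 (edgeR FDR = 0.0452). In that fit 2784 genes were higher and 2578 lower at FDR below 0.05, of 16971 tested.

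Sgo2a was the one member that passed FDR below 0.05 in whole testes. It had 16.7, 17.8 and 14.5 TPM in WT and 12.8, 7.44 and 9.52 TPM in dKO testes, with every dKO library below every WT library. Mean CPM fell from 49.1 ± 3.69 to 32.8 ± 5.83 (SD, n = 3 each). On the log2 scale this was -0.58 (SE 0.14), short of 2-fold, with FDR = 0.0228 by edgeR's quasi-likelihood test. Among all genes, 8.51% were lower at this FDR, and 19.9% had every dKO library below every WT library. The call was lost when any 1 WT library or dKO replicate 3 was left out (edgeR FDR = 0.0507 to 0.1). It was also lost in a fit with a replicate block (edgeR FDR = 0.0507). Sgo2a overlaps Kctd18 on the other strand and has a close relative, Sgo2b, listed at 0 in all 10 libraries, and whether strand was used in counting is not given in the sources used here.

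The other 5 genes had lower mean CPM in dKO testes and overlapped WT in CPM. Rad21 had 154, 85.9 and 172 TPM in dKO testes beside its 172 to 204 TPM in WT, a log2 fold change of -0.33 (SE 0.19, edgeR FDR = 0.253), although in TPM its highest dKO library lay just under its lowest WT library (171.59 and 171.67). The second dKO library was the lowest of all 6 for Rad21, Smc3, Stag1, Nipbl, Wapl and Sgo2a. Without it the log2 fold changes were -0.13 for Rad21, 0.09 for Smc3, 0.00 for Stag1, -0.06 for Nipbl and 0.01 for Wapl. None of the 10 genes was called by edgeR at FDR below 0.05 and at least 2-fold, beside 7.1% of the 16554 genes tested, 1 (Sgo2a) had an unadjusted p below 0.05, beside 33.9%, and DESeq2 also called 0. None had every dKO library above every WT library, beside 20.9% of genes. The median log2 fold change was -0.02 for the 4 meiotic genes, -0.22 for the other 6 and 0.02 for all genes tested. Sertoli cell markers summed to 4845 to 5245 TPM in WT and 3235 to 3577 TPM in dKO testes, 5 Leydig cell markers to 618 to 719 and 156 to 178 TPM, and 5 peritubular myoid markers to 827 to 900 and 290 to 507 TPM, and their part in the values of Rad21, Wapl and the other broadly expressed genes was not tested. Meiotic prophase markers summed to 259 to 290 TPM in WT and 266 to 312 TPM in dKO testes, and 3 of the 9 tested were higher in dKO at FDR below 0.05 by edgeR (Sycp3 0.56, Dmc1 0.62 and Spo11 1.43), beside 10.6% of all genes, while none of the 4 meiotic cohesin genes was.

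**Figure D2:**
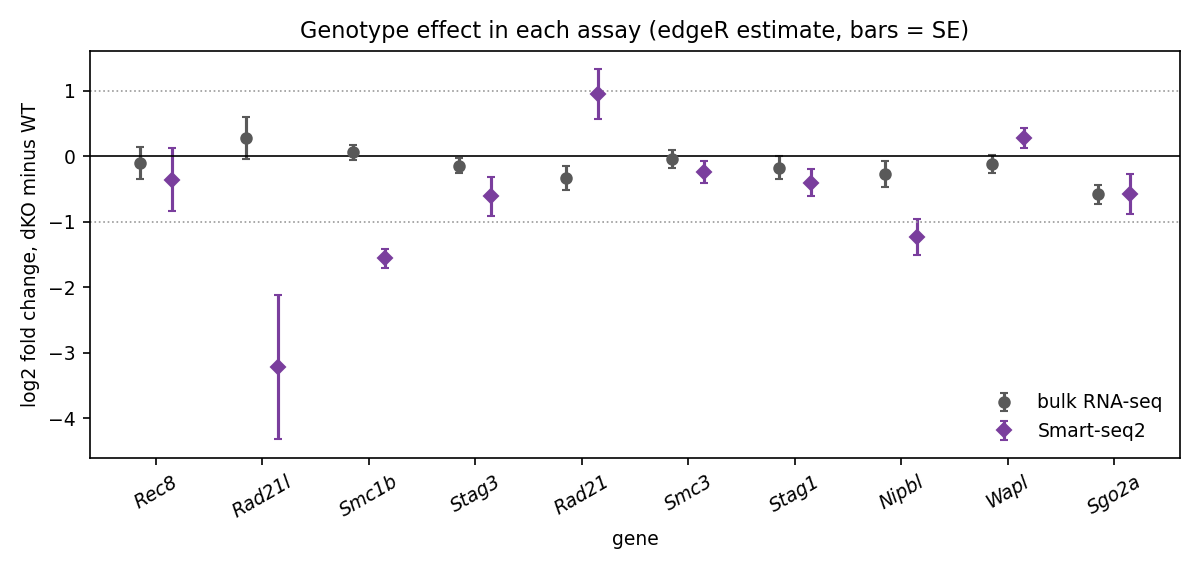
Log2 fold change (dKO minus WT, edgeR estimate with SE) of each gene in bulk RNA-seq (circles, 3 against 3 libraries) and Smart-seq2 (diamonds, 2 against 2), with dotted lines at 2-fold. The assays part most for Rad21l (0.28 and -3.22) and Smc1b (0.06 and -1.56), and coincide for Sgo2a at -0.58.

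Whether the genotype effect differed between sorted cells and whole testes was tested with both assays in 1 fit. It differed for Smc1b, by -1.52 (SE 0.18) on the log2 scale (FDR = 0.000839, edgeR's quasi-likelihood test of the interaction), and for Rad21l, by -3.41 (SE 0.73, edgeR FDR = 0.0124). The other 8 genes did not pass, with Rad21 at 1.36 (SE 0.43, edgeR FDR = 0.0598) and Nipbl at -0.86 (SE 0.36, edgeR FDR = 0.131). The effect passed for 2 of 10 members, both meiotic, beside 19% of the 19608 genes tested, so the share of members is that of all genes. Smc1b passed in each of the 13 alternative fits, whereas Rad21l missed the threshold with limma-voom (FDR = 0.0936) and without Smart-seq2 dKO replicate 2 (edgeR FDR = 0.0503). The assays differ in cells, protocol and replicate number, and these cannot be told apart.

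The balance of meiotic to general subunits gives the same values per library. The summed TPM of Rec8, Rad21l, Smc1b and Stag3 over that of Rad21, Smc3 and Stag1 was 1.43 and 1.01 in sorted WT cells and 0.775 and 0.746 in sorted dKO cells. In whole testes it was 0.313, 0.431 and 0.399 in WT and 0.413, 0.657 and 0.316 in dKO. By this sum the meiotic transcripts were at least level with the general ones in sorted WT cells and below them in the other 8 libraries. That level depends on the measure: in sorted WT cells the ratio was 1.27 and 0.875 with Smc1a and Stag2 added to the general subunits, and 0.844 and 0.52 from geometric means, while both sorted dKO libraries lay below both WT libraries under each.

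The paralog pairs showed where the balance lay. Smc1b was 6.66 and 5.53 times Smc1a in sorted WT cells, 2.87 and 4.15 times in sorted dKO cells, and 0.527 to 0.813 times in all whole testes. Rec8 and Rad21l together were 2.03 and 1.24 times Rad21 in sorted WT cells, 0.638 and 0.464 times in sorted dKO cells, and 0.077 to 0.229 times in whole testes. Between the meiotic kleisins, Rec8 was 1.76 and 6.64 times Rad21l in sorted WT cells and 23.4 and 26.7 times in sorted dKO cells. For Stag3 over Stag1 and Stag2 together the sorted genotypes overlapped, at 0.946 and 0.428 in WT and 0.758 and 0.621 in dKO.

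**Figure D3:**
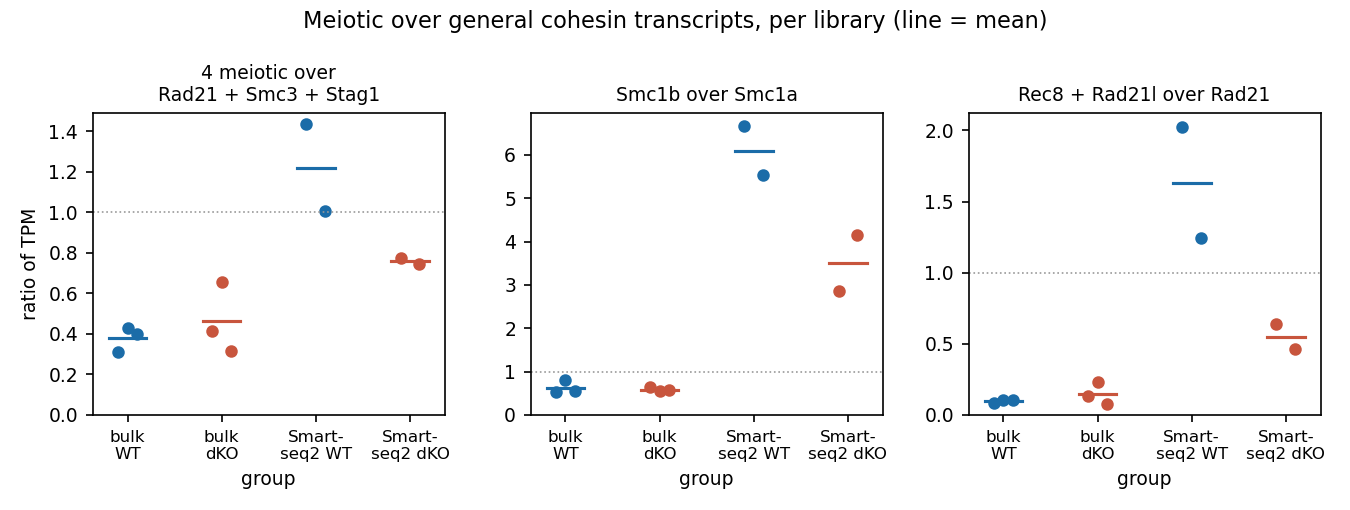
Ratios of TPM per library for the 4 meiotic over 3 general subunits, Smc1b over Smc1a, and Rec8 with Rad21l over Rad21, with lines at group means and a dotted line at 1. Sorted dKO cells lie below sorted WT cells in each of the 3 panels, and whole testes lie below both.

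Other genes that build or control cohesin were taken from a list of 16, of which 14 were tested in bulk RNA-seq and 15 in Smart-seq2. None was called by edgeR at FDR below 0.05 and at least 2-fold in either assay, 7 and 6 genes in the respective assays had an unadjusted p below 0.05 (beside 33.9% and 23.8% of all genes), and DESeq2 called 0 in bulk RNA-seq and 2 in Smart-seq2 (beside 11.3% of all genes), Stag2 (1.49, DESeq2 FDR = 0.0142) and the mitotic checkpoint kinase Bub1 (-1.10, DESeq2 FDR = 6.94e-06). Their median log2 fold change was -0.31 in whole testes and -0.35 in sorted cells. Smc1a, the general SMC1 protein, had log2 fold changes of -0.36 (edgeR FDR = 0.0509) and -0.64 (edgeR FDR = 0.261) in the respective assays. Stag2, the other general STAG protein, had -0.09 (edgeR FDR = 0.704) and 1.54 (edgeR FDR = 0.141), with 254 and 192 counts in sorted WT and 559 and 476 counts in sorted dKO cells, while its TPM overlapped (3.55 and 15 against 8.65 and 15.3). At FDR below 0.05 alone, 2 of the 14 tested were lower in whole dKO testes, beside 8.51% of all genes lower at that FDR. They were separase (Espl1, -0.64, edgeR FDR = 0.0114), which cleaves kleisins at anaphase, and the mitotic shugoshin Sgo1 (-0.66, edgeR FDR = 0.0121). Both were named after their values were seen. The TPM of Espl1 overlapped, at 48.74, 44.09 and 39.37 in WT and 43.95, 37.38 and 43.84 in dKO testes, while that of Sgo1 did not. The interaction passed for Stag2, Mau2 and Espl1, of which the last 2 were also named after their values were seen.

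Genes whose log2(TPM + 1) profiles over the 10 libraries, each centred on its mean, were nearest to those of the meiotic subunits differed from one subunit to the next. For Smc1b they were Gm364, Lpgat1 and Rbbp8, with root mean square differences of 0.168, 0.182 and 0.195. Rbbp8, for example, had mean TPM of 194 in sorted WT and 68.8 in sorted dKO cells and 30 and 23.6 in whole testes. For Rad21l they included Zfyve27 and Adprm (0.203 and 0.287), for Stag3 they were Ubac1, Bbip1 and Ogg1 (0.108 to 0.125), and for Rec8 they were Adam15, Spint2 and Scfd2 (0.163 to 0.185). None of the 4 meiotic subunits was among the 3 nearest genes of another, and the closest pair, Rec8 and Stag3, differed by 0.392.

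At the promoters, H3K4me3, a mark of active and poised starts, was found at each of the genes except Rec8 at P7. A gene was counted as marked when at least 2 replicate lists had a peak summit within 3000 bp of one of its transcript starts. At P7, 9 of the 10 genes carried H3K4me3 in both lists and Rec8 had no peak in either, beside 60.7% of 21951 protein-coding genes that were marked. At P14 Rec8 had H3K4me3 in both lists, with summits at -171 and -195 bp from its first start (negative values being upstream) and fold enrichments of 3.83 and 3.53, and all 10 genes were marked, beside 63.1% of genes. With every list held to its best 15361 peaks, Rec8 had H3K4me3 in 0 of 2 lists at P14 too, and Smc1b in 0 of 2 at P7, so the P14 peaks of Rec8 and the P7 peaks of Smc1b are among the weaker peaks of their lists, while Rec8 had no H3K4me3 peak at P7 under any of the 5 settings tried. Fold enrichment is a ratio within a list and was not compared between lists, whose read depths are unknown.

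Among genes that had H3K4me3 at both ages, the meiotic ones stood lower in the ranking of peaks at P7, where the best peaks of the 6 other genes all lay within the first 27.6% of the lists and those of the meiotic genes from 48.4% on. Ranked by p within each P7 list, the best Smc1b peak was at 96.7% and 84.1% of the list (0% being the strongest) and the best Stag3 peak at 73% and 74.4%. At P14 they were at 22.2% and 23.6%, and at 31.4% and 36.7%. Smc3 stood at 7.09% and 7.61% at P7 and at 0.839% and 0.939% at P14, and Rad21 at 3.2% and 0.742% at P7 and 1.5% and 6.08% at P14. Rad21l stood at 48.4% and 66.9% at P7 and at 30% and 19.6% at P14. The lists differ in length, with 19162 and 18465 peaks at P7 and 25627 and 26635 at P14. Counted from the strongest peak, Smc1b was at 18538 and 15534 at P7 and at 5677 and 6296 at P14, and Stag3 was at 13982 and 13746 and at 8052 and 9788. At P14 the ranges of Rad21l and Smc1b overlapped that of Nipbl (22.8% and 14.4%), and that of Stag3 did not.

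The summits show where these marks lie. Ribc2 begins on the other strand just upstream of Smc1b, and the Stag3 summits of H3K4me3, at -348 to -328 bp from a Stag3 start, were nearer to a start of Gm43720. In each arginine list labelled P14 the best Wapl summit was nearer to a start of 5830448L01Rik. Peaks at these genes cannot be assigned to 1 of the neighbours. For Rad21l, by contrast, no peak of any mark had its summit within 1000 bp of the start. Its H3K4me3 summits lay at -1843 to -1618 bp, and the stretch common to the best peak of each list overlaps no annotated exon.

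The 185 bases shared by the best H3K4me3 peak of Rad21l in each of the 4 lists are printed because no peak summit lay near the annotated start. The summits of 2 of these 4 peaks, at -1843 and -1794 bp, and several arginine summits, down to -2431 bp, lie outside the stretch. In the reference genome (GRCm38.p6, read on the minus strand) they held 66.5% G and C and 9 CpG, against 25.6% and 1 CpG in the 250 bases before the annotated start, and 1 match to CNCCTCAG in capitals.
Rad21l upstream peak, chr2:151670131-151670315, minus strand: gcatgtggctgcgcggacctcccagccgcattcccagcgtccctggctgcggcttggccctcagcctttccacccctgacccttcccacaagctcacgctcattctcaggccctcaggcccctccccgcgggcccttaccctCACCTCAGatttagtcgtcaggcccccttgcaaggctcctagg

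H3K27ac, a mark of active promoters and enhancers, was found at fewer of the meiotic than of the other genes at P7. It marked 5 of the 10 genes, Smc3, Stag1, Nipbl, Wapl and Sgo2a, and none of the 4 meiotic genes, beside 31% of protein-coding genes. Smc1b, Stag3 and the general subunit Rad21 had a peak in 1 of the 2 P7 lists each, and Rec8 and Rad21l in neither. At P14 it marked all 10 genes, beside 48.9% of protein-coding genes. Rec8 was again among the weakest, with fold enrichments of 2.62 and 3.02 and ranks at 75.6% and 31.3% of the lists, whereas Smc3 stood at 0.219% and 0.439%.

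**Figure D4:**
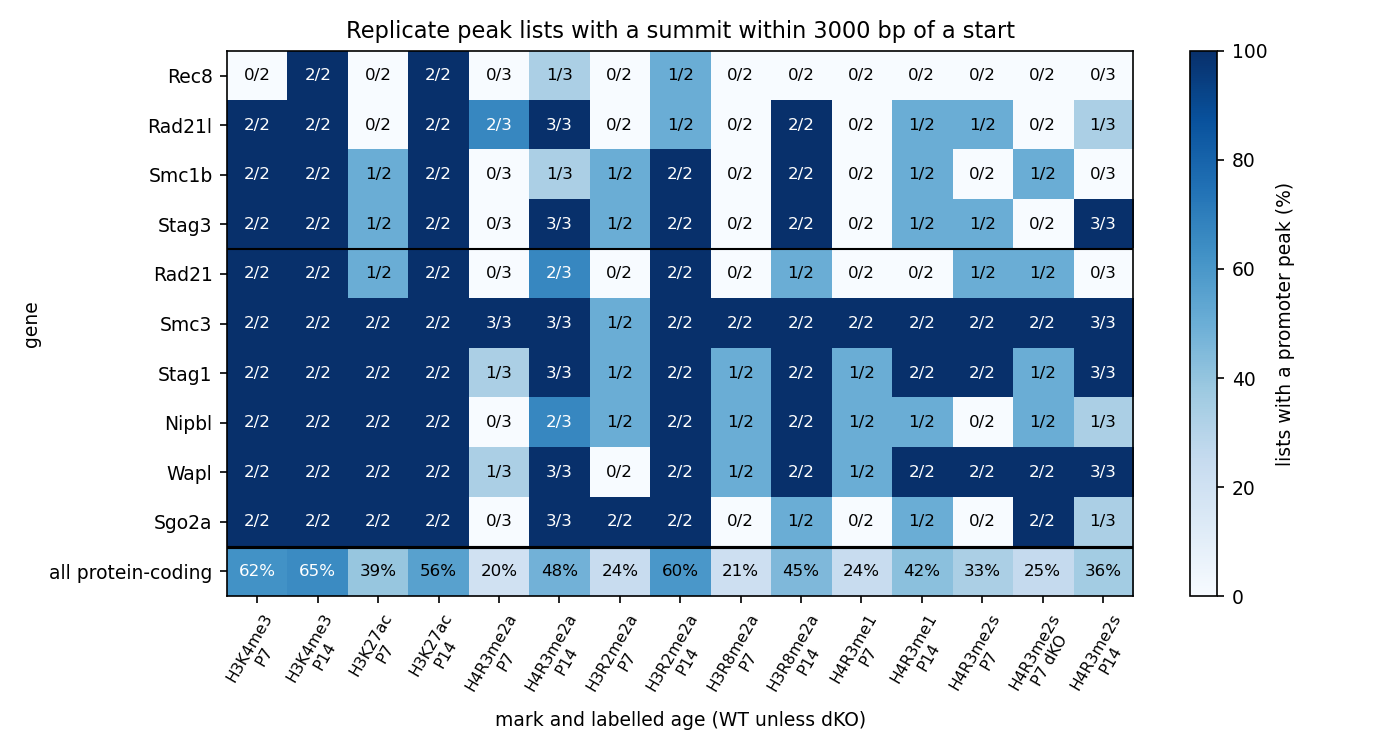
Number of replicate lists with a peak summit within 3000 bp of a transcript start of each gene, by mark and labelled age, shaded by the percent of lists, with the mean percent of protein-coding genes per list in the last row. The 4 meiotic genes (top rows) have few peaks at P7 other than H3K4me3, where Rec8 has 0 of 2, while Smc3 has a peak in nearly every list.

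Of the arginine marks, H4R3me2a, H3R2me2a and H3R8me2a are asymmetric dimethyl marks, and H4R3me2a is the one best known as a product of Prmt1. At P7 they were sparse at the 10 genes. H4R3me2a marked 2 genes, Rad21l and Smc3, beside 15.3% of protein-coding genes. H3R2me2a marked Sgo2a alone (11% of genes), H3R8me2a and H4R3me1 marked Smc3 alone (9.71% and 10.8%), and H4R3me2s marked Smc3, Stag1 and Wapl (17.8%). Of the meiotic subunits only Rad21l met the rule for any of these 5 marks at P7, through summits at -1781 and -1719 bp from its start. At q of at most 0.01 Rad21l had H4R3me2a in 0 of 3 lists, as did Smc3, and only Smc3 met the rule for an arginine mark (H4R3me1 and H4R3me2s).

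At P14 more of the genes were marked. H4R3me2a and H3R2me2a marked 8 genes each, beside 49% and 51.3% of protein-coding genes, and H3R8me2a marked 7, beside 33%. H4R3me1 marked Smc3, Stag1 and Wapl (29.9%), and H4R3me2s marked these 3 and Stag3 (34.2%). Stag3 had an arginine mark in 8 of the 9 P14 lists other than H4R3me2s, beside 1 of 9 at P7. In the same 9 lists each, Rad21l had 2 at P7 and 7 at P14, Smc1b 1 and 6 and Rec8 0 and 2, while the share of protein-coding genes with a peak was 22% and 48.8%. At equal list length the P14 counts were 6 for Rad21l, 4 for Stag3, 2 for Smc1b and 0 for Rec8. In the full lists the Rec8 summits were nearest to internal starts, 6677 and 5048 bp from the first start.

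The share of genes with such a peak was lower for the 4 meiotic genes than for the other 6 as a group, though not for every gene. Averaged over the 11 WT arginine lists of P7, 13.6% of meiotic genes and 40.9% of the general subunits and regulators had a promoter peak, beside 24.1% of protein-coding genes. Over the 12 lists labelled P14 the shares were 56.2%, 79.2% and 45.6%. For the arginine marks other than H4R3me2s the P14 lists were longer, with up to 55908 peaks. The H4R3me2s lists held 19981 and 36145 peaks at P7 in WT and 33814, 18423 and 22256 at P14. With every list held to the best 15361 peaks the meiotic share was 13.6% at P7 and 29.2% at P14, beside 20% and 31% of protein-coding genes. Smc3 alone had a peak in 10 of 11 lists at P7 and 12 of 12 at P14, whereas Rad21 had 1 and 5, fewer than Rad21l (3 and 8) and Stag3 (2 and 11). These are shares of 4 and 6 genes, and no test was made on them.

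**Figure D5:**
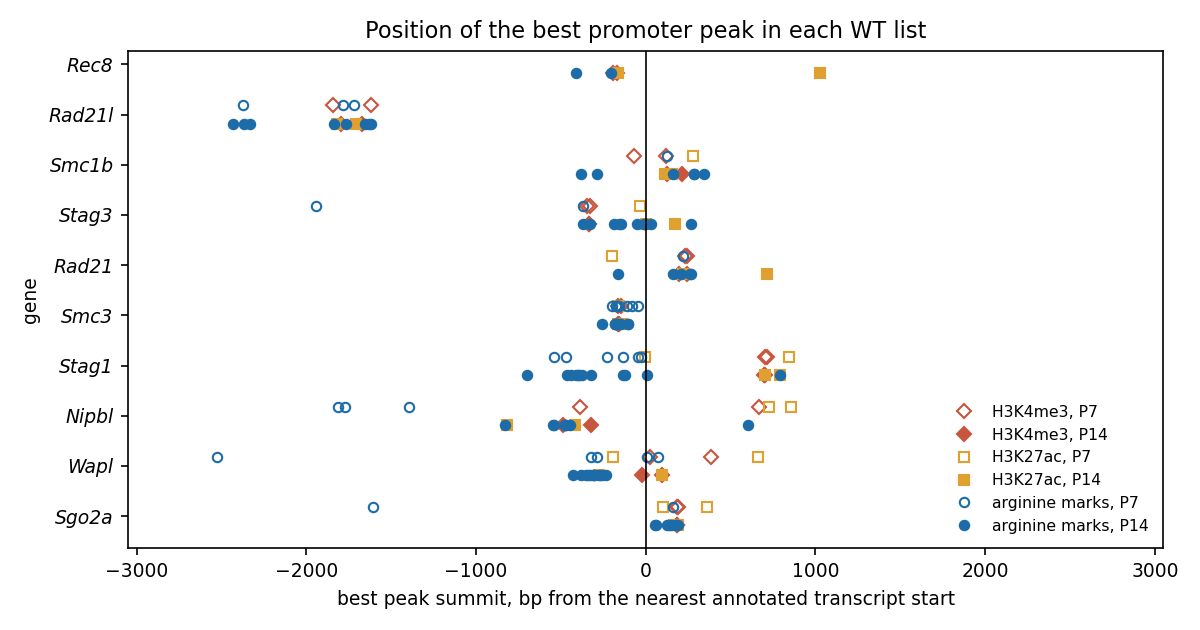
Distance in bp of the best promoter peak's summit from the nearest annotated transcript start in each WT list, for H3K4me3 (diamonds), H3K27ac (squares) and arginine marks (circles), open for P7 and filled for P14. Summits of Rad21l lie between -2431 and -1618 bp, those of Smc3 lie just upstream of the start, and those of Rec8 are seen at P14 only.

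H4R3me2s, a symmetric mark, was the one mark measured in both genotypes. At P7 it marked Smc3, Stag1 and Wapl in WT and Smc3, Wapl and Sgo2a in dKO lists, beside 17.8% and 9.82% of protein-coding genes. No meiotic subunit was marked in either genotype, and the single peaks were at Rad21l and Stag3 in WT and at Smc1b in dKO. At Smc3 the best peak stood at 4.75% and 1.52% of the WT lists and at 32.4% and 32.8% of the dKO lists. Sgo2a, with no peak in WT, had a peak in both dKO lists, at 39% and 3.54% of the lists (−log10 q of 0.0844 and 1.34). Tied peaks were given the best rank of their tie, so a percent can overstate the place of a weak peak. In dKO replicate 2, for example, the best peaks of Rad21, Nipbl and Wapl shared rank 9856. At q of at most 0.01 none of the genes marked in dKO kept the mark there, and in WT only Smc3 did. With 2 lists per genotype, different list lengths and unknown depth, these values carry no test.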

How the data were processed

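The members and all gene lists were chosen with earlier results of these data known. The authors trimmed RNA reads with fastp 0.23.2, aligned them to mm10 with STAR and deposited expected counts and TPM per gene in RSEM tables (FPKM was not used). For RSEM the version, annotation and strand setting, and for CUT&Tag the control, are not given in the sources used. Expected counts were rounded and tested with edgeR 4.0.16 in R 4.3.3 (filterByExpr, TMM, glmQLFit and glmQLFTest, no replicate block), with Benjamini-Hochberg adjustment over all genes tested and calls at FDR below 0.05 with a change of 2-fold or more. DESeq2 1.42.0 and limma 3.58.1 were alternatives. SE is the log2 fold change divided by the root of F. Of 55401 identifiers, 55141 matched GENCODE vM21, and the marker Gcna did not match. Deposited TPM were used for levels and ratios as they stand.

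The authors called peaks with MACS2 2.1.0 for each sample. Each deposited list gives fold enrichment, a ratio within that list, and −log10 p and −log10 q, of which −log10 p ranked the peaks and −log10 q set a stricter alternative. Peaks tied in p took the best rank of the tie. Summits were placed within 3000 bp of GENCODE vM21 transcript starts. Named genes are the 10 members, Prmt1, Smc1a, Stag2, any called gene of the cohesin list, and the 3 nearest profiles of each meiotic subunit among genes with a mean TPM of at least 1, of which 1 is not reported here. Espl1, Sgo1, Mau2 and the single marker genes given with values were named after their values were seen. Python 3.11.15 and samtools 1.23.1 were used for the other steps.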

Additional observations from a re-analysis of the deposited data

Results flagged for a closer look

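The effect of genotype differed between sorted germ cells and whole testes for 2 of the 10 cohesin genes and for 3 of the other cohesin genes, as tested by the interaction term in edgeR, beside 19% of all 19608 genes, so neither share stands out. The difference (Smart-seq2 minus bulk RNA-seq, log2 scale) was -3.41 for Rad21l and -1.52 for Smc1b. It was 1.72 for Stag2 (FDR = 0.00387 by edgeR) and -0.76 for Mau2, a partner of Nipbl in cohesin loading (FDR = 0.0347 by edgeR). For Espl1 it was 0.81 (FDR = 0.0324 by edgeR), and the TPM of Espl1 overlapped between genotypes in both assays.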

How the results depend on the processing

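The number of cohesin genes called in bulk RNA-seq was 0 with each alternative tool, scaling and filter and without each replicate, and 1 at FDR alone. In Smart-seq2 it was 0 with RLE size factors, without a filter and at FDR alone, 3 with DESeq2, and 0 to 3 without 1 replicate, beside 11.3% of all genes with DESeq2 and 0% to 41.4% without 1 replicate. The count of genes whose effect differed between assays was 2, 1 with limma-voom and 1 to 4 without 1 replicate, beside 19%, 7.93% and 13.2% to 41.5% of all genes. The replicate numbers did not pair the libraries (correlations of deviations 0.082, -0.221 and -0.119 in bulk RNA-seq, 0.018 in Smart-seq2), and a fit with a replicate block called 0 cohesin genes in either assay, with Sgo2a in bulk RNA-seq at FDR = 0.0507 by edgeR. The meiotic to general TPM ratio was 1.22 in sorted WT, 0.761 in sorted dKO, 0.381 in whole WT and 0.462 in whole dKO samples. With geometric means of TPM + 1 these were 0.682, 0.318, 0.217 and 0.258, and with Smc1a and Stag2 added 0.661 in sorted dKO and 0.3 in whole WT samples. Without 1 replicate they were 1.01 to 1.43, 0.746 to 0.775, 0.356 to 0.415 and 0.364 to 0.535. The cause of these moves was not tested.

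The share of gene and list pairs with a promoter peak at P7 was 30% for arginine marks, 65% for H3K27ac and 90% for H3K4me3, and at P14 70%, 100% and 100%. At q of at most 0.01 it was 9.09% and 40% at P7 for arginine marks and H3K27ac, 40% and 95% at P14, and for H4R3me2s alone 15% in place of 45% in WT and 5% in place of 50% in dKO. Within 1000 bp H3K4me3 gave 80% at P7 and 90% at P14, and H3K27ac 85% at P14. At equal list length H3K27ac gave 55% and 95% and H3K4me3 80% and 90%. Leaving out H4R3me2s, an alternative chosen after seeing the data, gave 26.7% and 76.7% for arginine marks.

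Of the 30 log2 effects of single genes (10 genes in 3 comparisons), 11 changed sign under at least 1 alternative, in 24 values in all, and none of the 11 was called in the main test. In bulk RNA-seq without 1 replicate they ranged from -0.44 to 0.12 for Rec8, -0.02 to 0.14 for Smc1b, -0.17 to 0.09 for Smc3, -0.35 to 0.00 for Stag1 and -0.23 to 0.01 for Wapl. In Smart-seq2 Rec8 ranged from -0.79 to 0.30. The interaction ranged from -0.60 to 0.48 for Rec8 (0.00 with limma-voom), -0.71 to 0.08 for Stag3, -0.36 to 0.02 for Smc3, -0.42 to 0.05 for Stag1 and -0.28 to 0.41 for Sgo2a (-0.04 with RLE size factors). Counts of 12 and 20 limit the precision for Rad21l in sorted dKO cells.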
